A study of Homo sapiens with 12 samples.

Results

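The genes described here are the long intergenic non-coding RNA genes that carry a LINC symbol in an RNA-seq series of human cerebral organoids (COs). They were chosen by name alone, as every row whose symbol is LINC followed by digits, which gave 83 of the 10976 genes (0.756%). None had a symbol of LINC and a hyphen. Long intergenic non-coding RNAs are transcribed, capped and spliced like messenger RNAs but have no long open reading frame with an assigned protein. The LINC symbol is given to such genes when no function is available to name them by, so for most members no role is stated below. As a class these RNAs are known for low levels and for expression limited to a few cell types or stages, and the developing nervous system is among the tissues where many have been catalogued.

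COs are spherical neural cultures grown from pluripotent stem cells without patterning factors that would direct them to 1 brain region. Here they came from the human embryonic stem cell line H1 with unedited *JUN* (WT) and from its *c-JUN* knockout derivatives KO#2 and KO#10, made with CRISPR-Cas9. *JUN* codes for c-JUN, a subunit of the AP-1 transcription factor. Each line was sampled on day 12 and on day 24 with 2 libraries, so that each day had 2 WT and 4 KO libraries, and each library held total RNA of a few pooled organoids. WT is 1 line and KO is 2, all groups passed through the same organoid protocol, and nothing in the labels says that replicates were separate inductions, so that *p*-values measure the spread between these libraries, which may be technical. In bulk RNA, fewer cells that express a gene and less RNA per cell cannot be told apart.

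The values are whole-number scores per gene, with a median of 17 and a maximum of 5585 in all 12 libraries, so the depth of the libraries is unknown. *JUN* had values of 4 and 8 for WT, 19 and 18 for KO#2 and 14 and 13 for KO#10 at day 12, and of 13 and 15, 39 and 39, and 29 and 32 at day 24. The edited gene was therefore not lower in the libraries labelled KO (log2 difference 1.25 ± 0.17 SE at day 24, limma adjusted *p* = 0.0184), and KO below means the libraries so labelled. The study reported loss of c-JUN protein in the KO lines by western blot and no *c-JUN* mRNA in KO COs by RT-qPCR. The RNA values here differ from that RT-qPCR, and the reason was not tested. The marker lists of other cell types differed strongly at day 24. *AFP*, a fetal liver protein, was 5585 in both WT libraries, 42 and 1 in KO#2 and 902 and 0 in KO#10, and 3 mesenchymal genes summed to 1960 and 1769, 119 and 81, and 1889 and 104. The 6 neuronal genes summed to 276 and 136 for WT, 1479 and 1853 for KO#2 and 314 and 1258 for KO#10, and the 6 pluripotency genes to 388 and 782 in WT against 24 to 43 in KO. *FOXA2* of the endoderm list and *TWIST1* of the mesenchymal list had no row. KO#10 replicate 1 of day 24 thus stood apart from the other KO libraries, and the counts of calls below that use it, with the values of the genes called at day 24, are also given without it. Values per KO#10 library and other single-gene differences include it.

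The LINC genes were low in this table. Of the 83 genes, 65 had 2 or more libraries with values of 10 or above, where 9952 of all 10976 genes did. The other 18 members had highest values between 2 and 13. Of these 18, 10 had no library at 10 or above and 8 had 1 library. At the other side of the limit, 11 members reached 10 in exactly 2 libraries, among them *LINC01356*, *LINC02582* and *LINC02617*. With a limit of 20 in place of 10, 31 members passed, and with 5, 77 did. Only 13 members were at 10 or above in all 12 libraries, and 7 reached 100 in any: *LINC00504*, *LINC02503*, *LINC02895*, *LINC00506*, *LINC01873*, *LINC01002* and *LINC00461*. The first 5 of these made up 77.0% to 85.8% of the summed LINC values in each library of day 12, and 17.9% to 75.1% at day 24. High scores in this table fall on steps that many genes share, so that differences between the highest values are coarse.

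In GENCODE release 29 (GRCh38) all 83 gene identifiers were found, 65 of them as lincRNA and 4 as antisense genes. The members lay on 20 chromosomes, with gene intervals from 1.13 to 682 kb (median 31.3 kb). An annotated gene overlapped 56 of them and a protein-coding gene 19, which matters because counting by strand is not stated for these files. The remaining 27 overlapped no annotated gene.

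RefSeq promoter windows, 250 bases before to 50 bases after the start (GRCh38.p14), were held for 44 of the 83 members. The windows below are those of the members that differed between KO and WT at day 24 and have one, the first 3 being higher in KO and the last lower. Capitals mark an octamer (ATGCAAAT), the sequence recognised by POU factors. The windows are LINC00506 (plus strand, chr3:87089030-87089329), LINC00887 (minus strand, chr3:194312755-194313054), LINC00641 (minus strand, chr14:21206851-21207150) and LINC01356 (minus strand, chr1:112850594-112850893).
LINC00506: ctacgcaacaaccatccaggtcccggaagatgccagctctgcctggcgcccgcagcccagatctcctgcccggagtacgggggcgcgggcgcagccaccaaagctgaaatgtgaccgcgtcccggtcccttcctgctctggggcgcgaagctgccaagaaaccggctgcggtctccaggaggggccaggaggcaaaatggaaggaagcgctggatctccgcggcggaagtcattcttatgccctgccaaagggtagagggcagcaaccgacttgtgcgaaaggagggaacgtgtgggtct
LINC00887: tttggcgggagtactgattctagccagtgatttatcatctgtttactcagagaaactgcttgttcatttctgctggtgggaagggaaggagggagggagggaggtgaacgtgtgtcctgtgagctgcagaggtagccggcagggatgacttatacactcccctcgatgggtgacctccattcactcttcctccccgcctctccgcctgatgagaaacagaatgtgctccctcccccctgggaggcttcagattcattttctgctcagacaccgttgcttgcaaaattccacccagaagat
LINC00641: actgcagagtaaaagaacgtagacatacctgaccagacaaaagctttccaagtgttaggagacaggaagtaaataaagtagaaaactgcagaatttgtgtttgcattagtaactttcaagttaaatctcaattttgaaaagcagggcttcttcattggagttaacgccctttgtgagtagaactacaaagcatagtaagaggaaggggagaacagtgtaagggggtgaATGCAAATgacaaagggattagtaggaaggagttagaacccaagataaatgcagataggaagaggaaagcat
LINC01356: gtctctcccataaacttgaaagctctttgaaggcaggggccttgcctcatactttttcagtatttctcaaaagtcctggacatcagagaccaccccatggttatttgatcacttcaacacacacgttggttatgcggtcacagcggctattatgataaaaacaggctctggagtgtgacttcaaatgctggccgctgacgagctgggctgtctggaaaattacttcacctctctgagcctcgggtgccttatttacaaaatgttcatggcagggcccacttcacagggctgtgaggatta

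The motifs searched, on both strands, were the AP-1 site TGANTCA, the cyclic AMP response element TGACGTCA and the octamer. An AP-1 site was in 7 of the 44 LINC windows (15.9%) and in 7.71% of all 35116 promoter windows of the same length. The 7 were those of *LINC00339*, *LINC01001*, *LINC01002*, *LINC01122*, *LINC01873*, *LINC01965* and *LINC02024*, and none of the 4 windows printed above held one. The cyclic AMP response element was in 2 LINC windows (4.55%, all promoters 1.85%) and the octamer in 2 (4.55%, all promoters 1.77%), those of *LINC00641* and *LINC01551*. These are letter matches in the windows and no measure of binding.

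The largest change in the LINC genes was with time in WT. From day 12 to day 24, 38 of 65 tested members fell and 2 rose in WT (limma on log2(value + 1), adjusted *p* under 0.05 and at least 2-fold). That is 58.5% lower and 3.08% higher, against 7.88% and 7.19% of all 9952 genes tested. Without a filter on low values, 39 of all 83 members fell and 3 rose, against 820 and 808 of all 10976 genes. The median log2 difference of the 65 members was −1.24, and that of all genes tested was 0.02. In WT both day 24 libraries lay below both day 12 libraries for 51 of the 65 members, and the same held for 3149 of all 9952 genes (31.6%). The filter lets in a gene through its high group, so these counts describe the tested members and are not support for the direction by themselves.

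**Figure D1:**
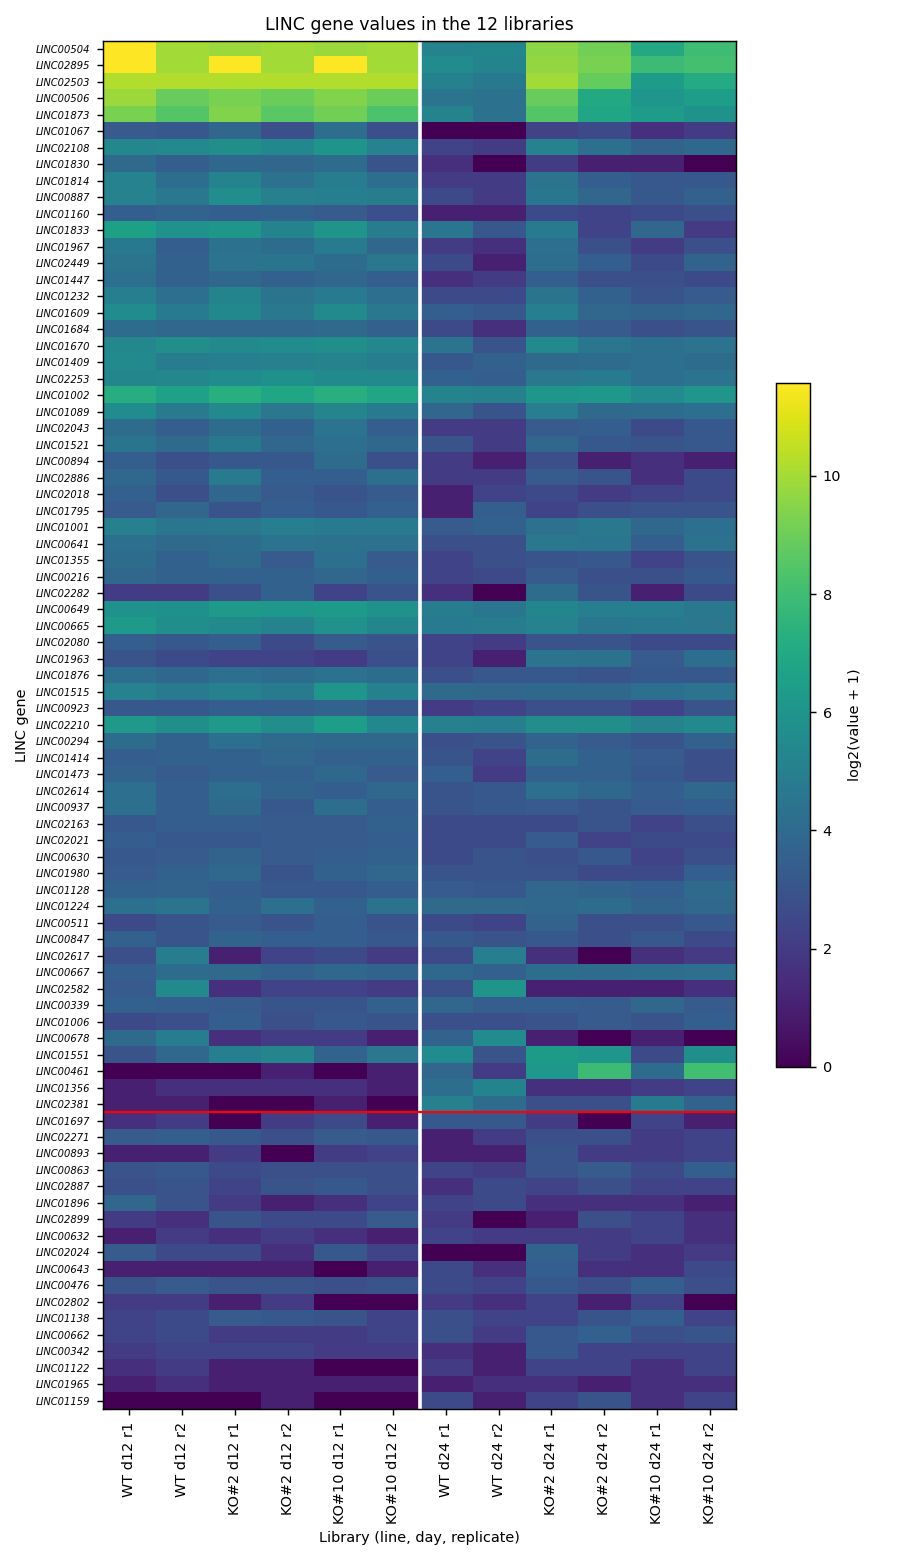
Values of the 83 LINC genes (rows) in the 12 libraries (columns, with line, day and replicate), coloured by log2(value + 1). The 65 genes above the red line had at least 10 in 2 or more libraries and are sorted by their day change in WT, and most are darkest in the 2 WT libraries of day 24.

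On the log2(value + 1) scale, which shrinks the changes of low genes, the 5 most abundant members had the largest WT changes. Over the alternatives of processing the WT difference of *LINC01067* ran from −3.17 to −6.42, and that of *LINC00504* from −4.73 to −6.32. *LINC00504*, on chromosome 4 (chr4:14470465-14888169), had values of 3030 and 1006 for WT, 900 and 1006 for KO#2 and 900 and 1006 for KO#10 at day 12. At day 24 it had 35 and 39 for WT, 747 and 549 for KO#2 and 125 and 248 for KO#10. All day 24 libraries lay below all day 12 libraries, and WT lay lowest by a wide margin (log2 difference by day −5.52 ± 0.67 SE in WT, adjusted *p* = 0.000387; −1.50 ± 0.47 in KO, adjusted *p* = 0.0263, limma). *LINC02895* (chr15:38139595-38226897) showed the same order. It was 3046 in replicate 1 and 1009 in replicate 2 of each line at day 12, and 47 and 36 for WT, 821 and 604 for KO#2 and 243 and 278 for KO#10 at day 24. Its fall was −5.38 ± 0.71 in WT and −2.03 ± 0.51 in KO (limma adjusted *p* = 0.000613 and 0.00808). *LINC02503* (chr4:103961616-104037543) was 1203 or 1204 in all 6 libraries of day 12, one of the shared steps, and 33 and 25 for WT, 1009 and 452 for KO#2 and 84 and 136 for KO#10 at day 24. The WT libraries were again lowest.

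*LINC00506* (chr3:87089129-87158363) and *LINC01873* (chr2:66383306-66392450, 41002 bases from *MEIS1*, a homeobox gene) completed the group of 5. *LINC00506* fell from 902 and 473 to 21 and 19 in WT, while KO#2 went from 604 and 507 to 472 and 128, and KO#10 from 668 and 507 to 67 and 86 (log2 difference −4.96 ± 0.66 in WT, −2.04 ± 0.47 in KO). *LINC01873* fell from 604 and 356 to 35 and 19 in WT, and went from 668 and 394 to 356 and 111 in KO#2 and from 552 and 318 to 80 and 61 in KO#10 (−4.11 ± 0.65 in WT, −1.96 ± 0.46 in KO). For both genes the day 12 values of the 3 lines lay close together, and the lines separated at day 24.

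Among members of lower level, *LINC02108* (chr5:58541567-58558243) fell from 40 and 42 to 4 and 3 in WT (−3.23 ± 0.39, limma adjusted *p* = 0.000364), and from between 34 and 62 to between 12 and 34 in KO (−1.30 ± 0.27, adjusted *p* = 0.00319). *LINC01067* went from 9 and 8 to 0 and 0 in WT, where it is listed at 0, and *LINC01830* from 15 and 10 to 2 and 0. The KO values of *LINC01830* at day 24, 0 to 3, were as low as those of WT. *LINC01814* and *LINC00887* dropped to between 3 and 5 in WT from 34 and 17 and from 34 and 24. *LINC01160*, which overlaps the coding gene *RAP1A* on the opposite strand, went from 10 and 12 to 1 and 1 in WT and from between 6 and 11 to between 4 and 6 in KO.

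The other WT falls were smaller. In all 38 members both WT libraries of day 24 lay below both of day 12, but the call that chose them favours such separation. *LINC01833*, 954 bases from *SIX3-AS1*, a gene beside the forebrain regulator *SIX3*, went from 96 and 57 to 22 and 8 in WT (−2.38 ± 0.79, limma adjusted *p* = 0.039). *LINC01967*, *LINC02449*, *LINC01447* and *LINC01232* had WT log2 differences of −2.29, −2.23, −2.12 and −2.04. *LINC01609*, *LINC01684*, *LINC01670*, *LINC01409*, *LINC02253*, *LINC01002*, *LINC01089*, *LINC02043* and *LINC01521* had −1.87, −1.86, −1.85, −1.82, −1.82, −1.80, −1.78, −1.77 and −1.73. Over the 38 the WT difference reached −5.52, with a median of −1.83.

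Both WT risers were at or near 0 to 2 at day 12. *LINC02381* (chr12:54126053-54147485, overlapping *SMUG1*, a DNA repair glycosylase gene, on the opposite strand) was 1 and 1 in WT and 0 or 1 in KO at day 12. At day 24 it was 32 and 16 for WT, 6 and 6 for KO#2 and 26 and 12 for KO#10 (3.57 ± 0.64 in WT and 3.27 ± 0.46 in KO, limma adjusted *p* = 0.00262 and 0.000312). The day 24 values exceeded those of day 12 in all 3 lines. *LINC01356* (chr1:112820170-112850643), listed here as linked to pluripotent cells, was 1 and 2 in WT at day 12 and 17 and 36 at day 24 (3.40 ± 0.48, adjusted *p* = 0.000795), while its KO values stayed between 1 and 4 on both days.

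In KO, 20 members fell (30.8%, all genes 5.58%) and 3 rose (4.62%, all genes 5.89%) from day 12 to day 24, with a median log2 difference of −0.74 for the members and 0.01 for all genes. Of the 65 tested members, 20 were called in both genotypes, 20 in WT alone, 3 in KO alone and 22 in neither. Falling in both genotypes were 19 members. This split was not counted over all 9952 genes tested, of which 1500 were called in WT and 1141 in KO, so it is not read as a trait of the members. Whether the WT and KO changes of a gene differ is tested by the interaction below. The steepest KO falls were those of *LINC01830* (−2.70 ± 0.46), *LINC01833* (−2.31 ± 0.56) and *LINC02503* (−2.16 ± 0.58), and the 20 falls ran from −1.06 to −2.70.

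Besides *LINC02381*, the KO risers were *LINC00461* and *LINC01963*. *LINC00461* (chr5:88507546-88691057) is the brain-expressed host of the microRNA gene *MIR9-2* and lies 26060 bases from *MEF2C*, a neuronal transcription factor gene. It was 0 or 1 in all 6 libraries of day 12. At day 24 it was 13 and 3 for WT, 72 and 243 for KO#2 and 16 and 266 for KO#10 (6.07 ± 0.74 in KO, limma adjusted *p* = 0.000134; 2.90 ± 1.05 in WT, adjusted *p* = 0.0545). The low KO value, 16, was that of KO#10 replicate 1, whose neuronal genes summed to 314. KO#2 replicate 1 had 72 at a neuronal sum of 1479, KO#2 replicate 2 had 243 at 1853, and KO#10 replicate 2 had 266 at 1258. The part of neurons in these values was not tested. Without KO#10 replicate 1 the KO difference of *LINC00461* was 6.89 ± 0.52 (limma adjusted *p* = 5.91e-06). *LINC01963* (chr2:216217045-216220192) was 7 and 5 in WT and 3 to 6 in KO at day 12, and 4 and 1 for WT, 20 and 19 for KO#2 and 9 and 17 for KO#10 at day 24 (1.69 ± 0.32 in KO, adjusted *p* = 0.00188).

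**Figure D2:**
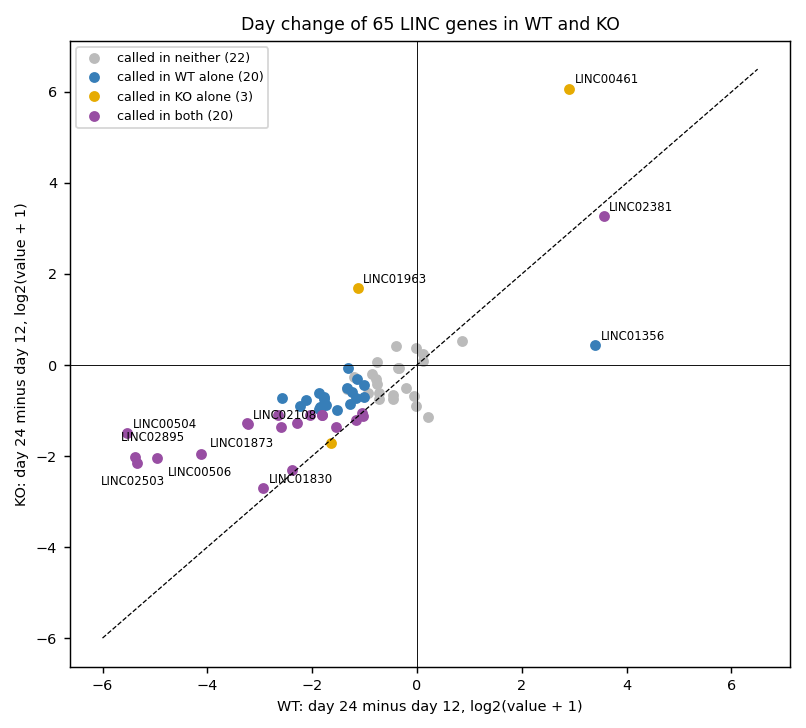
Day 24 minus day 12 in WT (x axis) and in KO (y axis) on the log2(value + 1) scale for the 65 tested LINC genes, coloured by where the change was called; the dashed line marks equal changes. Of the genes, 20 were called in both, 20 in WT alone, 3 in KO alone and 22 in neither, a split not counted over all genes. *LINC00504*, *LINC02895*, *LINC02503*, *LINC00506* and *LINC01873* sit far to the left. Their changes run from −5.52 for *LINC00504* to −4.11 for *LINC01873* in WT and lie between −1.50 and −2.16 in KO.

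Fitted line by line, 7 members fell and 3 rose in KO#2 (all genes 3.94% and 4.39%), and 19 fell and 2 rose in KO#10 (all genes 5.14% and 4.5%). The median LINC difference was −0.61 in KO#2 and −0.87 in KO#10. Without KO#10 replicate 1 of day 24, 16 members fell and 3 rose in KO (all genes 5.56% and 5.97%). In WT, where that library only enters the estimate of the spread, 39 fell and 3 rose (816 and 753 of all 9896 genes). In KO#10 alone, 8 then fell and 2 rose (all genes 3.69% and 3.57%). Fewer members fell in WT without WT replicate 1 of day 12 or without WT replicate 2 of day 24. The same held over all genes, and each of these fits keeps 1 WT library on that day.

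KO and WT were compared at day 24 in the 37 members that reached 10 in 2 libraries of that day. Of these, 8 were higher (21.6%, all genes 4.22%) and 2 lower (5.41%, all genes 3.79%), with a median log2 difference of 0.83 for the members and 0.01 for all 9289 genes. The difference was above 0 in 30 of the 37 members and in 50.4% of all genes. Of the 37 members, 11 reached the limit through KO alone, both WT libraries being under 10, and 2 through WT alone. These held 5 of the 8 called higher and both called lower, so that the counts are no support for a direction. Without a filter, 9 of all 83 members were higher and 3 lower, against 416 and 397 of all 10976 genes. In 22 of the 37 members all 4 KO libraries lay above both WT libraries, and in 2 of the 37 all lay below. Over all 9289 genes the counts were 2066 (22.2%) and 2024 (21.8%). The WT libraries are the same as in the day comparison, so that the WT fall and the KO excess are not separate evidence.

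*LINC02895* was higher in KO by 3.35 ± 0.50 (log2, SE; 10.2-fold, limma adjusted *p* = 0.0196), *LINC00504* by 3.15 ± 0.66 (8.88-fold, adjusted *p* = 0.0306) and *LINC00506* by 2.72 ± 0.71 (6.57-fold, adjusted *p* = 0.0471). These are genes that fell in both genotypes, so that higher in KO means a level between that of day 12 and that of WT at day 24. *LINC01963* was the exception, since its KO values of day 24 exceeded every value of day 12 (2.39 ± 0.45, 5.24-fold, adjusted *p* = 0.0244). *LINC02108* (2.09 ± 0.39, adjusted *p* = 0.0244), *LINC01814* (1.55 ± 0.39, adjusted *p* = 0.0424) and *LINC00887* (1.48 ± 0.39, adjusted *p* = 0.0471) were at 12 to 34, 8 to 20 and 8 to 22 in KO and at 3 to 5 in WT. *LINC00641* (chr14:21200079-21206900, beside the RNA-binding protein gene *HNRNPC*) had 6 and 6 for WT, 23 and 22 for KO#2 and 10 and 19 for KO#10 at day 24 (1.42 ± 0.32, adjusted *p* = 0.0356), against 15 to 20 in all libraries of day 12. It lies outside the rule for named genes and was added after its values were seen. Of the 8 members higher in KO, 7 were also among those that fell in WT.

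Several members with large differences missed the threshold, and their KO libraries were spread widely. *LINC00461* differed by 3.66 ± 1.13 (limma adjusted *p* = 0.0669), *LINC02503* by 3.18 ± 0.93 (adjusted *p* = 0.0579) and *LINC01873* by 2.15 ± 0.67 (adjusted *p* = 0.067), and in each all KO libraries lay above both WT libraries. *LINC02253*, *LINC01002*, *LINC01001* and *LINC01409* passed the adjusted *p* (0.0242, 0.0331, 0.0478 and 0.0372) with differences under 2-fold, 0.99, 0.83, 0.83 and 0.73.

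**Figure D3:**
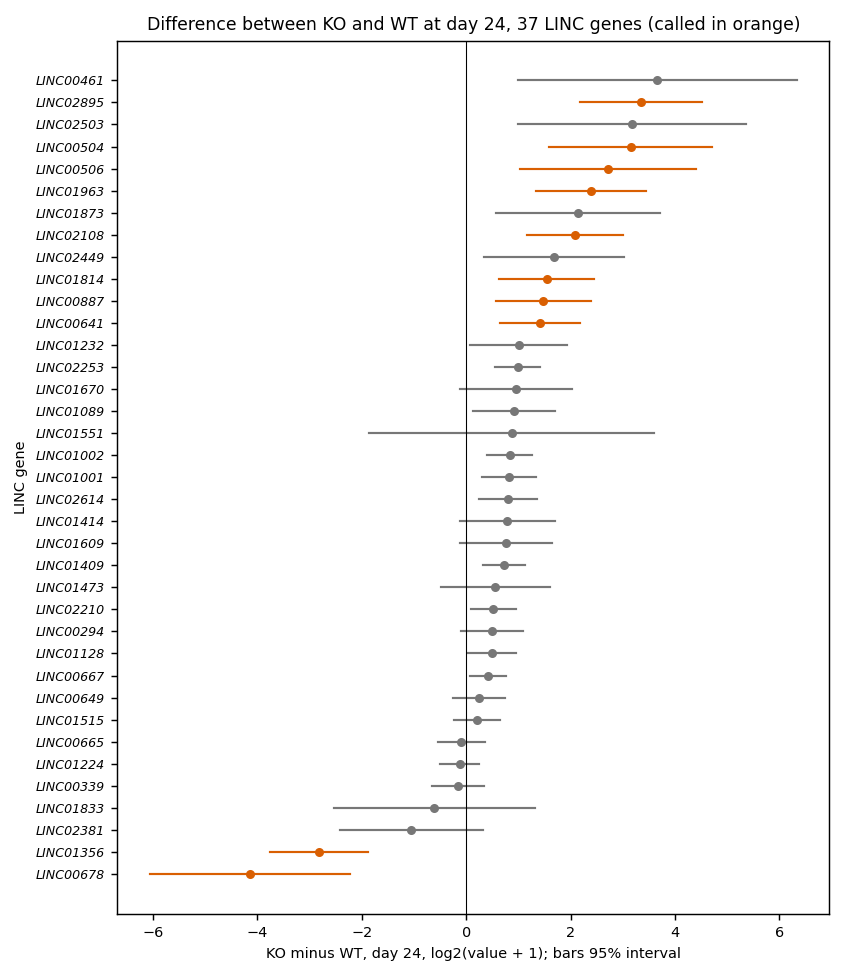
Difference between KO and WT at day 24 on the log2(value + 1) scale for the 37 tested LINC genes, with 95% intervals as bars and the 10 called genes in orange. Differences lie above 0 for 30 genes, and the 2 called genes below 0 are *LINC01356* and *LINC00678*.

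Lower in KO were *LINC00678* and *LINC01356*, both of which were listed as linked to pluripotent cells. *LINC00678* (chr11:27617626-27634627) was 15 and 28 for WT, 2 and 3 for KO#2 and 3 and 1 for KO#10 at day 12, and 12 and 47 in WT and 0 or 1 in all 4 KO libraries at day 24. The groups did not overlap on either day (log2 difference −4.14 ± 0.81 at day 24, limma adjusted *p* = 0.027). *LINC01356* was 17 and 36 for WT, 2 and 2 for KO#2 and 3 and 4 for KO#10 at day 24 (−2.82 ± 0.40, adjusted *p* = 0.0195). In the same libraries *POU5F1*, which codes for the pluripotency factor OCT4, was 75 and 236 in WT and 3 to 6 in KO. At day 12 *POU5F1* was 107 and 136 in WT and 16 to 19 in KO. *LINC00678* was higher in WT at day 12 too, but *LINC01356* was then 1 and 2 in WT and 1 or 2 in KO. *LINC01356* thus did not follow *POU5F1* by day in WT. *LINC02582* (6 and 62 in WT, 1 or 2 in KO) and *LINC02617* (5 and 30 in WT, 0 to 3 in KO) were also higher in WT replicate 2 but did not reach 10 in 2 libraries of day 24 and were not tested there. The part of pluripotent cells in these values was not tested.

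**Figure D4:**
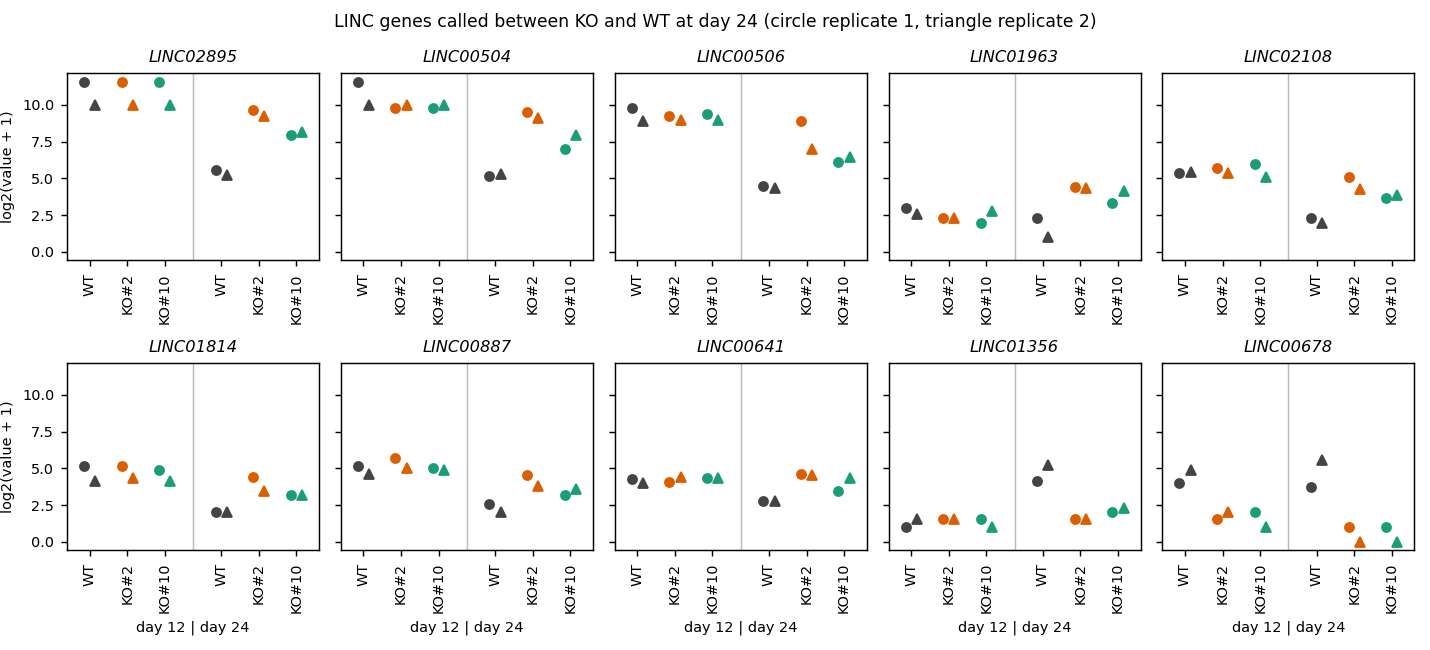
Values of the 10 LINC genes called between KO and WT at day 24, as log2(value + 1), by line and day (day 12 on the left and day 24 on the right of each panel; circles replicate 1, triangles replicate 2). At day 24 all 4 KO libraries lie above both WT libraries for 8 genes and below them for *LINC01356* and *LINC00678*. The call that chose these genes favours such separation.

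The number of calls at day 24 depended on single libraries. Without KO#10 replicate 1, 13 members were higher and 3 lower, and the calls over all genes rose from 392 and 352 to 722 and 624. The 10 genes called with all libraries were called there too, with differences of 3.62 for *LINC02895*, 3.62 for *LINC00504*, 3.06 for *LINC00506*, 2.63 for *LINC01963*, 2.27 for *LINC02108*, 1.68 for *LINC00887*, 1.67 for *LINC01814*, 1.67 for *LINC00641*, −2.86 for *LINC01356* and −4.31 for *LINC00678*. *LINC00461* (4.49 ± 0.75, limma adjusted *p* = 0.0112) and *LINC02503* (3.74 ± 0.79, adjusted *p* = 0.0203) then passed the threshold. Without KO#2 replicate 1 there were 3 higher and 1 lower, and without either WT library, KO#2 replicate 2 or KO#10 replicate 2 there were none, at 1 to 12 higher and 1 to 17 lower genes over the whole table. The exact permutation *p* of a single gene at 2 against 4 libraries cannot go below 0.0667.

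The clones were also compared with each other and, one by one, with WT. Compared directly, no member was called between KO#2 and KO#10 at day 24, nor was any of the 9289 genes (limma). Against WT at day 24, KO#2 had 13 members higher and 2 lower (all genes 4.76% and 4.23%), and KO#10 had 1 higher, *LINC02895*, and 0 lower (all genes 0.14% in each direction). Without KO#10 replicate 1, KO#10 had 0 members and 0 of 9180 genes called against WT (limma, with 1 KO#10 library whose spread is taken from the other lines). KO#2 replicate 1 had the highest day 24 value in 38 of the 65 members (58.5%, ties counted). The same share was 23.2% over all genes, and for WT replicate 1 it was 4.62% of members and 16.9% of all genes. Between the clones at day 24, 5 members were higher and 1 lower in KO#2 at an unadjusted *p* under 0.05 and 2-fold (all genes 0.474% and 0.377%). The filter can let in a gene through KO#2 alone, as with *LINC01814* (20 and 10 in KO#2, 8 and 8 in KO#10, 3 and 3 in WT). A count of positive differences is therefore no support for a direction. The difference between the clones was above 0 in 31 of 37 members (all genes 47.1%), and in 29 of 37 without KO#10 replicate 1 (all genes 45.4%). The widest was that of *LINC02503* (2.65, 95% interval 1.58 to 3.71, adjusted *p* = 0.825, limma), followed by *LINC01551* (1.99, −1.03 to 5.01) and *LINC00504* (1.86, 1.01 to 2.71). *LINC02381* lay the other way (−1.42, −2.52 to −0.32). At day 12 no member and no gene was called between the clones, and 1 member passed the unadjusted *p* (all genes 4 higher and 3 lower).

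At day 12 the median over the 83 members was 10 to 12 in all 6 libraries of KO and WT. In 1 of the 56 members tested all KO libraries lay above both WT libraries and in 2 of the 56 below. Over all 8885 genes the counts were 731 (8.23%) and 741 (8.34%). None of the 56 was called (0 by limma), where all genes had 2 higher (0.0225%) and 6 lower (0.0675%). At an unadjusted *p* under 0.05 and 2-fold, 2 members passed, *LINC00678* lower and *LINC01551* higher, where all genes had 80 higher and 65 lower. *LINC00678* differed by −2.78 ± 0.46 (limma adjusted *p* = 0.102), and with replicate number as a block, which pairs the libraries at day 12, by −2.78 ± 0.43 (adjusted *p* = 0.0366), so that 1 member was then called, where all genes had 36 higher and 35 lower of 8885 under the block.

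A test of the interaction asked whether the day change differed between genotypes. It called 4 of 65 members, 3 with the higher KO change (4.62%, all genes 0.452%) and 1 with the lower (1.54%, all genes 0.854%), all at an adjusted *p* of 0.0367 (limma). *LINC00504* (4.03 ± 0.82) and *LINC01160* (1.86 ± 0.37) fell less in KO, *LINC01963* (2.82 ± 0.56) rose in KO alone, and *LINC01356* (−2.96 ± 0.59) rose in WT alone. At an unadjusted *p* under 0.05 and 2-fold 18 members passed, 17 of them positive, where all genes had 449 positive and 515 negative of 9952 (4.51% and 5.17%). Without KO#10 replicate 1 of day 24, 13 members were called, 12 positive and 1 negative, where all genes had 419 and 497 in place of 45 and 85, and leaving out any other library gave 0 to 3. With the clones as separate groups 4 members were positive and 0 negative (all genes 33 and 66), *LINC01356* being no longer called (−2.96, adjusted *p* = 0.0508, limma). *LINC01160* and *LINC01356* rest on low values, since at day 24 WT was 1 and 1 for the first and KO 2 to 4 for the second.

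Members of the role lists were few. Of 30 listed LINC genes 8 had a row, and none of those listed for endoderm or for micropeptides did. Of the neural list, *LINC01551* was 7 and 14 for WT, 31 and 38 for KO#2 and 12 and 23 for KO#10 at day 12. At day 24 it was 48 and 7 for WT, 78 and 65 for KO#2 and 5 and 54 for KO#10, and the groups overlapped (0.87 ± 1.16, limma adjusted *p* = 0.6). The replicates of WT and of KO#10 were farther apart than the lines. *LINC00632*, the gene of the *CDR1* locus that gives rise to a circular RNA in brain, ranged from 1 to 4 over all libraries, *LINC01122* from 0 to 4 and *LINC01896* from 1 to 13, and these were not tested. *LINC01896* was 13 and 7 in WT and 1 to 4 in KO at day 12. At day 24 it was 4 and 5 in WT and 1 or 2 in KO. *LINC00511*, the only growth-linked member with a row, ranged from 4 to 12 and was not called in any day comparison.

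Each of the 10 genes called at day 24 had a nearest row within 500 kb. Of these rows 9 could be tested, and 0 were called in KO against WT at day 24 (limma, all genes 4.22% and 3.79%), while 1 passed the adjusted *p* under 2-fold. *CPEB2*, which lies 114312 bases from *LINC00504* and codes for a translation regulator, was 8 and 7 in WT and 8 to 10 in KO. *SPRED1*, an inhibitor of RAS signalling 25939 bases from *LINC02895*, was 16 and 23 in WT and 14 to 17 in KO, and by day its difference was −0.84 ± 0.22 in WT and −1.24 ± 0.16 in KO (limma adjusted *p* = 0.0163 and 0.000169). *SLC16A1*, a lactate transporter 61204 bases from *LINC01356*, was 78 and 98 in WT and 43 to 51 in KO at day 24 (−0.88 ± 0.15, adjusted *p* = 0.0206), under 2-fold. *ID2*, beside *LINC01814*, differed by −0.84 ± 0.38 and *CHMP2B*, beside *LINC00506*, by −0.80 ± 0.24 (limma adjusted *p* = 0.151 and 0.0628).

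Other classes of non-coding genes were counted in the same fits. Antisense genes (symbols ending in AS and a digit) followed the LINC genes, with 41 of 91 lower (45.1%) and 4 higher in WT by day, 18 of 91 lower in KO, and 10 of 54 higher in KO at day 24 (18.5%). Hosts of small nucleolar RNAs (SNHG), which are highly expressed spliced transcripts, had 2 of 19 lower and 3 higher in WT, and none higher in KO at day 24. MicroRNA host genes had 4 of 12 lower in WT (33.3%), and 2 of 7 higher (28.6%) and 1 lower in KO at day 24. Protein-coding genes had 6.88% lower and 7.22% higher in WT. The shares of the antisense class thus lay near those of the LINC genes, and the difference between classes was not tested.

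**Figure D5:**
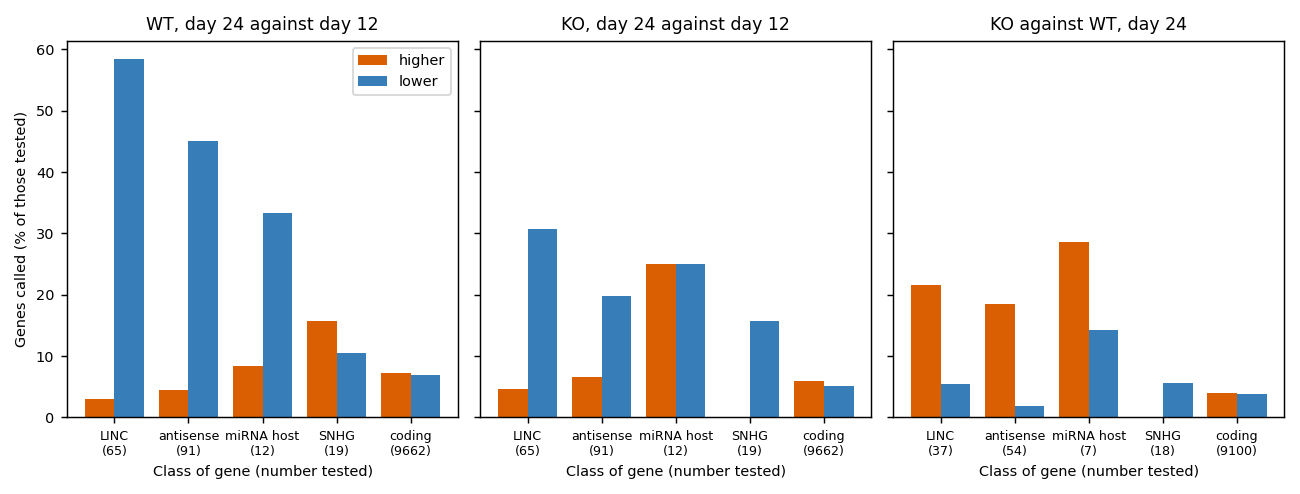
Genes called higher (orange) and lower (blue) as a percentage of those tested, for 5 classes of genes (numbers tested in brackets) in 3 comparisons. LINC and antisense genes had 58.5% and 45.1% lower in WT by day, against 6.88% of protein-coding genes.

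By position, 16 of 21 tested members that overlap no annotated gene fell in WT (76.2%), as did 16 of 30 that overlap non-coding genes only (53.3%) and 6 of 14 that overlap a coding gene (42.9%). Over all genes tested 7.88% fell. The position classes were not counted over all genes, and the difference between them was not tested. The 38 members that fell lay on 17 chromosomes, with a median interval of 29 kb and a median longest transcript of 1908 bases, and the other 27 had medians of 52.8 kb and 1819 bases. Per library, the median over the 65 members was 12 to 16 at day 12. At day 24 it was 7 and 7 for WT, 13 and 9 for KO#2 and 8 and 9 for KO#10. *AFP* was at 5585 and 5585, 42 and 1, and 902 and 0 in these libraries. The medians of protein-coding genes were 17 or 18 in every library, and the part of the cell mixture in the LINC values was not tested.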

How the data were processed

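Total RNA of COs was sequenced after depletion of ribosomal RNA with a dUTP strand-marking kit. The deposited values are whole-number scores per gene that the authors had normalized and rounded. The method of normalization and the use of strand in counting are not given in the sources used here. The submitters' processing notes name bcl2fastq, Bowtie2, RSEM and the mouse build mm10, but all 10976 identifiers are human Ensembl genes, and gene coordinates are those of the files, which use GRCh38 positions. Since the normalization fixes the column totals (473637 to 483149), depth is unknown and no counting interval was given. No library was a copy of another (*r* between replicates 0.909 to 0.957).

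Values were tested as log2(value + 1) with limma 3.58.1 (R 4.3.3, lmFit and eBayes with a variance trend) over all genes with at least 10 in at least 2 libraries of the fit. This log2(value + pseudocount) scale shrinks the fold changes of low genes. *p*-values were adjusted by Benjamini-Hochberg over all genes tested, and genes were called at an adjusted *p* under 0.05 and a log2 difference of at least 1. Each day had its own fit of KO against WT, and the day changes and interaction were fitted over all 12 libraries. Alternatives were no filter or a limit of 20, a pseudocount of 0.1, no trend, separate clones, other sample sets, a replicate block and leaving out each library, with centring on the median and single-clone fits, alone and without KO#10 replicate 1 of day 24, added after seeing the data. The fits were tested on simulated data. Promoter counts and figures used Python 3.11.15, pandas 2.3.3 and matplotlib 3.10.9.

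Genes named were the 30 called members with the largest change, role-list members with a row, the nearest row within 500 kb of members called between KO and WT, and *JUN*. *LINC00641*, *LINC01001*, *LINC02582* and *LINC02617* were added after their values were seen, and *LINC00339*, *LINC01965* and *LINC02024* through the motif search. The members, lists and tests were chosen with earlier results of these data known. Correlations of same-numbered libraries' deviations were 0.459, 0.428 and 0.598 between the lines at day 12, taken as pairing, and 0.212, −0.106 and 0.346 at day 24, not taken as pairing.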

Additional observations from a re-analysis of the deposited data

Results flagged for a closer look

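The day change differed between KO and WT in 4 members by the interaction test (limma, adjusted *p* = 0.0367 each), with log2 values of 4.03 for *LINC00504*, 2.82 for *LINC01963*, 1.86 for *LINC01160* and −2.96 for *LINC01356*.

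Among 70 groups of 4 KO libraries of named members, 7 held 1 library set apart from the other 3 by Dixon's criterion, where chance flags about 1 in 20. In 5 of these the set-apart library differs by a small step of the scores. At day 12 these were *LINC02503* (1203 in KO#10 replicate 1, 1204 in the others), *LINC02381* (1 in KO#10 replicate 1, 0 in the others) and *LINC01356* (1 in KO#10 replicate 2, 2 in the others), and at day 24 *LINC01896* (1 in KO#10 replicate 2, 2 in the others) and *LINC01122* (2 in KO#10 replicate 1, 4 in the others). The other two were wider. *LINC01609* was 31 in KO#2 replicate 1 and 12 or 13 in the others, and *LINC01551* was 5 in KO#10 replicate 1 and 54 to 78 in the others.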

How the results depend on the processing

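No called value of a named gene was reversed in any alternative, and of 1458 single-gene values recomputed, 167 lost their call. Alternatives in which a gene no longer passed the limit are not among the 1458. Losses were uneven, since *LINC00887* kept its call between KO and WT at day 24 in 7 of 14 alternatives. *LINC00461* kept its call by day in KO in 21 of 21. Raising the limit from 10 to 20 left 4 calls between KO and WT at day 24 (all genes 271 higher and 205 lower). It left 26 by day in WT (470 and 550) and 1 in the interaction (28 and 55). With it 31 members passed the limit, so that fewer were tested. With all 12 libraries in 1 fit day 24 had 21 calls (all genes 589 higher and 528 lower), and with WT libraries alone the WT day change had 25 (all genes 490 and 534). At day 12 there was 1 call with no variance trend. At an unadjusted *p* there were 2 calls at day 12, 18 in the interaction, 6 between clones at day 24 and 1 at day 12.

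Leaving out 1 library gave 0 to 16 calls at day 24, 0 to 1 at day 12, 21 to 42 by day in WT, 17 to 28 by day in KO, 0 to 13 in the interaction and 0 between clones. The call at day 12 came without WT replicate 2. The interaction had 0 calls without WT replicate 1, either KO#2 library or KO#10 replicate 1 of day 12, and without WT replicate 2, KO#2 replicate 2 or KO#10 replicate 2 of day 24.

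With the replicate block, day 12 had 1 call in place of 0. At day 24, where the libraries share only a number, the block gave 7 calls in place of 10 (all genes 332 higher and 329 lower). It gave 42 by day in WT (all genes 756 and 804), 23 in KO (596 and 566) and 6 in the interaction (129 and 186). Centring on the median changed no count. Unknown depth means that values near 0 cannot be called absent.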
